A study of Homo sapiens with 5 samples.

Results

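The LSM proteins that assemble into RNA-binding rings were followed in human RPE-1 cells after knockdown of FAM53C. The members are the gene rows with the symbols LSM1, LSM2, LSM3, LSM4, LSM5, LSM6, LSM7 and LSM8, which makes 8 of the 64252 genes in the count table. They were chosen because LSM5 was strongly lower in the knockdown libraries, so the values of LSM5 are a description and carry no test. RPE-1 is an immortalized line derived from retinal pigment epithelium. The control libraries (siCtrl, genotype WT, n = 3) came from cells given the non-targeting ON-TARGET Control #1 siRNA, and the knockdown libraries (siFAM53C, genotype FAM53C KD, n = 2) from cells given a pool of ON-TARGETplus siRNAs against FAM53C. Both siRNAs were used at 5 µM, and polyadenylated RNA was collected 48 hr after transfection. The comparison asks which transcripts differ when FAM53C is reduced in a single cell line, with 1 siRNA reagent per group.

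LSM proteins carry the Sm fold and close into rings of subunits that hold short stretches of RNA in the central pore. LSM2 to LSM7 are shared by both kinds of ring. With LSM1 they form the cytoplasmic ring, which binds the 3′ end of messenger RNAs that have lost most of their poly(A) tail and, with PATL1, promotes removal of the 5′ cap. With LSM8 they form the nuclear ring, which binds the uridine-rich 3′ end of the U6 spliceosomal RNA and stays with it in the U4/U6.U5 tri-snRNP.

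The libraries held 19260124 to 25615415 counts. FAM53C itself, the targeted gene, was at 57.6 to 60.9 CPM in siCtrl and at 14.2 and 22.3 CPM in siFAM53C (log2 fold change −1.71, SE 0.19, adjusted p = 0.00363 in edgeR), where CPM are counts scaled to the library total by the trimmed mean of M-values. In the principal component analysis, the first axis held 39.8% of the variance, with siCtrl 3 (33.7) and siFAM53C 2 (44.9) at one end, siCtrl 1 (−31.5) and siCtrl 2 (−47.4) at the other and siFAM53C 1 near the middle (0.264). Differences are also given within 2 sides drawn from this axis, siFAM53C 1 against siCtrl 1 and siCtrl 2, and siFAM53C 2 against siCtrl 3. The axis does not place siFAM53C 1 clearly, and the labels name no batch. The column names of siCtrl 3 and siFAM53C 2 carry the same number, though their titles do not. Nothing in the labels says that the libraries of a group came from separate cultures, so p-values measure only the spread between these libraries. Of the epithelial markers, KRT8 reached at least 236 CPM and KRT18 at least 148 CPM in every library, and the transcription factors MITF and OTX2 at least 34.0 and 13.5 CPM. RPE65, a defining enzyme of mature retinal pigment epithelium, was at 0 in all 5 libraries, and RLBP1 and TYRP1 did not exceed 0.0849 CPM.

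LSM5 (ENSG00000106355), a shared subunit of both rings, lies on the minus strand at chr7:32485338-32495283 (GRCh38). It was at 41.7, 49.1 and 44.4 CPM in siCtrl and at 6.16 and 6.88 CPM in siFAM53C. Both knockdown libraries lay far below every control library and close to each other. The means were 45.1 ± 3.75 CPM (SD, n = 3) and 6.52 ± 0.505 CPM (SD, n = 2), which is 6.91-fold lower, with a log2 fold change of −2.79 (SE 0.15). The difference was −2.86 on one side of the library split and −2.68 on the other. By log2 fold change it ranked 32 from the lowest of the 15341 genes tested, and 7 of the genes below it had a mean of at least 10 CPM in siCtrl. In bulk RNA, fewer cells that express a gene and less of its RNA per cell cannot be told apart.

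The 3′ untranslated region (UTR) of LSM5 holds the heptamer GACAAGA, a sequence that earlier results of these data had singled out, so its presence in LSM5 is a description. All 7 of the 7 protein-coding LSM5 transcripts in GENCODE 44 contained it, at base 45 of 1923 in the longest 3′ UTR. LSM8 was the only other member with a match, at base 2378 of 12033. Both sites are printed on the transcript strand, 5′ to 3′, with the heptamer in capitals, because one gene that was strongly lower and one that was not share it. The sites are at chr7:32487210-32487216 on the minus strand and chr7:118194380-118194386 on the plus strand of GRCh38.
LSM5: tggcttataatGACAAGAaaatggaatttt
LSM8: tttttttaactGACAAGAtactatctaaac
The flanks are not the same, though the base just before the heptamer is t in both. The search was for GACAAGA on the transcript strand only, in the longest protein-coding 3′ UTR of each gene, and 1976 of 19248 genes (10.3%) held it. Among tested genes, 15.1% of holders and 2.92% of the other genes were called lower, and the holders had longer 3′ UTRs (median 3344 against 1386 bases). Since the heptamer was singled out in these same data, the 2 shares are a description and not a test. A match is a description of these letters and not evidence of binding.

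**Figure D1:**
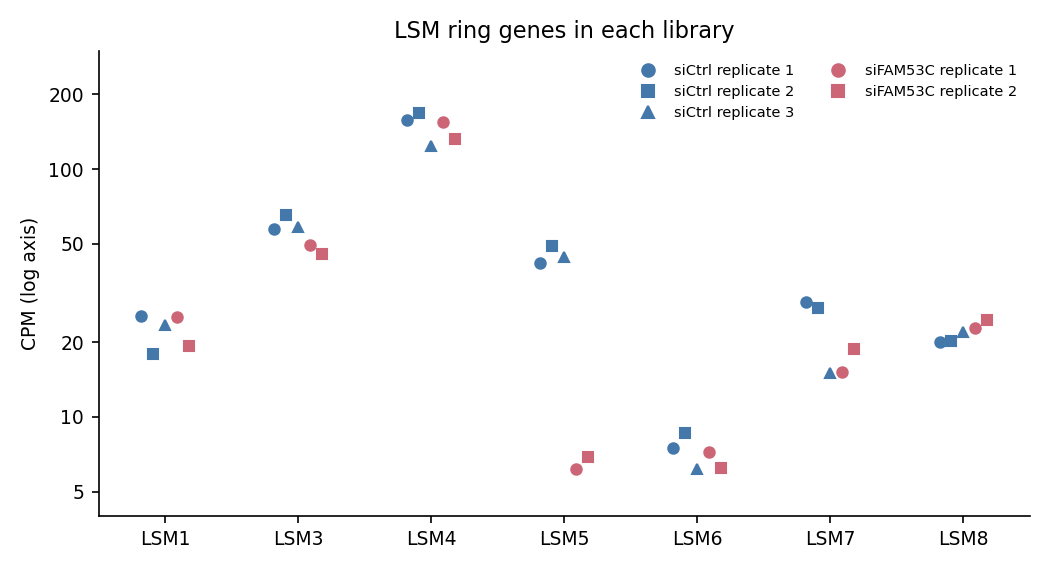
CPM (log axis) of the 7 tested LSM members in each library, with siCtrl and siFAM53C in separate colors and a marker shape for each replicate. LSM5 lies at 41.7 to 49.1 CPM in siCtrl and at 6.16 and 6.88 CPM in siFAM53C, while the groups of LSM1, LSM4, LSM6 and LSM7 overlap.

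None of the 6 other tested members passed the threshold in either direction in the edgeR quasi-likelihood test after Benjamini-Hochberg adjustment, where 3.47% of all tested genes were called lower and 0.489% higher (3.96% in either direction). DESeq2 and limma-voom also called 0 of the 6, and 1 had an unadjusted p under 0.05, as 17.1% of all tested genes did. Their log2 fold changes ranged from −0.49 to 0.19 with a median of −0.10, against 0.016 over all tested genes. The groups did not overlap for 2 of them, LSM3 (lower) and LSM8 (higher), where 18.8% and 16.7% of all genes had such a pattern.

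Among the shared subunits, LSM3 (ENSG00000170860, plus strand of chr3:14178817-14201122) was at 57.5, 65.0 and 58.2 CPM in siCtrl and at 49.6 and 45.2 CPM in siFAM53C. Both siFAM53C libraries were below every siCtrl library. The log2 fold change of −0.34 (SE 0.12) did not pass (adjusted p = 0.181), and the differences were −0.30 and −0.36 within the sides. With a term for the library split the estimate was −0.33 and passed (adjusted p = 0.0282), in a fit that called 10.7% of all genes lower and 6.76% higher.

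LSM4 (ENSG00000130520, minus strand of chr19:18306236-18323112), whose C-terminal tail is rich in arginine and glycine, was the most abundant member. It was at 157, 168 and 124 CPM in siCtrl and at 155 and 132 CPM in siFAM53C, and the groups overlapped. The estimate on the log2 scale was −0.064 (SE 0.15, adjusted p = 0.887).

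LSM6 (ENSG00000164167, plus strand of chr4:146175703-146200000) was at 7.47, 8.63 and 6.18 CPM in siCtrl and at 7.22 and 6.24 CPM in siFAM53C. These values rest on 118 to 191 counts per library, and the groups overlapped. The estimate on the log2 scale was −0.14 (SE 0.24, adjusted p = 0.831).

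LSM7 (ENSG00000130332, minus strand of chr19:2321520-2328611) was at 29.0, 27.5 and 15.1 CPM in siCtrl and at 15.2 and 18.8 CPM in siFAM53C. Here the control libraries themselves spread widely, with siCtrl 3 just below both knockdown libraries. The estimate was −0.49 on the log2 scale (SE 0.28, adjusted p = 0.45), and the within-side differences had opposite signs, −0.89 and 0.32. Without siCtrl 3 the log2 fold change was −0.72 and passed (adjusted p = 0.0216), and with a block by the replicate number in the titles it was −0.74 (adjusted p = 0.0274).

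Of the 2 subunits that tell the rings apart, LSM1 (ENSG00000175324, minus strand of chr8:38163335-38176730) was at 25.6, 18.0 and 23.5 CPM in siCtrl and at 25.2 and 19.3 CPM in siFAM53C. The groups overlapped fully, and the estimate was −0.0067 on the log2 scale (SE 0.20, adjusted p = 0.993). Its exons span 1676 bases, and 636 of these overlap genes of the opposite strand, BAG4 among them, and the methods name a reverse-stranded setting for the alignment but none for the counting.

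LSM8 (ENSG00000128534, plus strand of chr7:118184144-118204035), the nuclear subunit, was at 20.1, 20.2 and 22.1 CPM in siCtrl and at 22.9 and 24.6 CPM in siFAM53C. Both siFAM53C libraries were above every siCtrl library by a small margin. Its estimate was 0.19 on the log2 scale (SE 0.14, adjusted p = 0.548).

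The 2 rings were set against each other by the log2 ratio of LSM1 to LSM8 CPM within each library. The ratio was 0.35, −0.17 and 0.086 in siCtrl and 0.14 and −0.35 in siFAM53C. The groups overlapped, and the difference of the means was −0.20 (exact permutation test, two-sided, p = 0.5, where 3 against 2 libraries cannot give less than 0.1). Without siFAM53C 2 the difference was 0.050.

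LSM5 was also compared with the ring within each library, as its CPM over the median of the 6 other tested members, a ratio that library scaling cannot move. In siCtrl LSM5 was at 1.53, 2.08 and 1.95 times that median, and in siFAM53C at 0.256 and 0.316 times. LSM5 was thus above the median member in every control library and below it in both knockdown libraries. The difference of the log2 ratios was −2.69, given as a description because LSM5 chose the family.

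**Figure D2:**
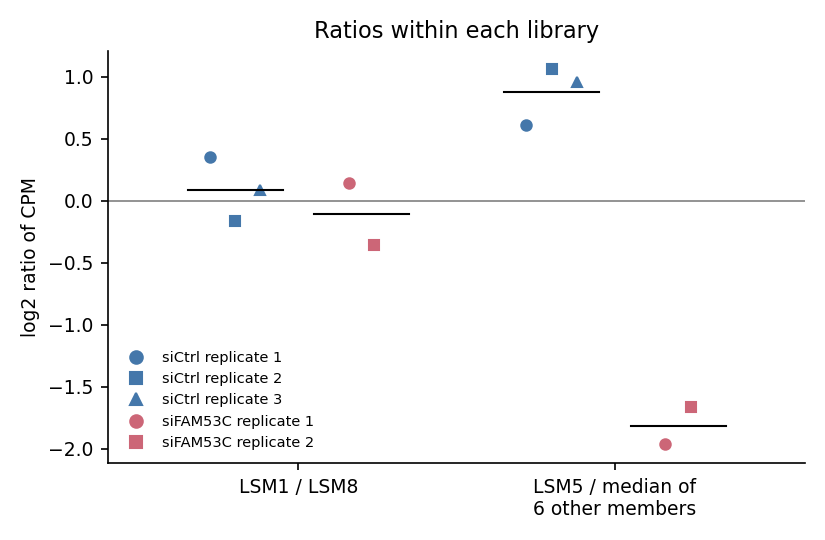
Log2 ratio within each library of LSM1 to LSM8 and of LSM5 to the median of the 6 other tested members, with siCtrl and siFAM53C points side by side, a marker shape for each replicate and a line at each group mean. The LSM1 to LSM8 ratio overlaps between groups, and the LSM5 ratio lies at 0.62 to 1.06 in siCtrl and at −1.97 and −1.66 in siFAM53C.

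The abundance of the members was ordered by CPM per kilobase of exon sequence, which allows genes to be compared. In siCtrl the order of the mean levels was LSM4 (52.4), LSM3 (17.9), LSM7 (14.2), LSM1 (13.3), LSM5 (9.60), LSM6 (1.87) and LSM8 (1.20), with LSM2 left out because its level could not be read. The ranges over the 3 libraries overlapped between LSM3 and LSM7 and between LSM7 and LSM1, and not between the other neighbors. In siFAM53C the level of LSM5 was 1.39 (1.31 to 1.46), behind LSM6 at 1.69 and beside LSM8 at 1.37 (1.32 to 1.42). The per-length levels depend on the annotated exon length, which for LSM8 includes a 3′ UTR of 12033 bases.

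LSM2 (ENSG00000204392, minus strand of chr6:31797396-31806966), the remaining shared subunit, had 0 counts in 4 libraries and 1 count in siFAM53C 2, and was not tested. A count of 0 allows up to 3 counts, or 0.113 to 0.157 CPM in these libraries, for counting error only. LSM2 lies in the major histocompatibility complex region, and its neighbors were also nearly without counts. Of the 38 other protein-coding genes within 200 kb on each side, 37 had fewer than 50 counts summed over the 5 libraries, against 39.0% of the 19550 protein-coding genes in the table. They included CSNK2B, the regulatory subunit of casein kinase 2, with 0 counts, and the chloride channel gene CLIC1 with 10. The hg38 sequence set used here holds 261 alternate sequences among its 455, and all 13 of the 13 windows of 100 exon bases of LSM2 had an exact copy on an alternate sequence. None of the 7 other members had such a copy. Whether the genome index of the authors held the alternate sequences is not given in the sources used here, and the part of these copies in the low counts was not tested. The level of LSM2 could therefore not be read from this table.

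**Figure D3:**
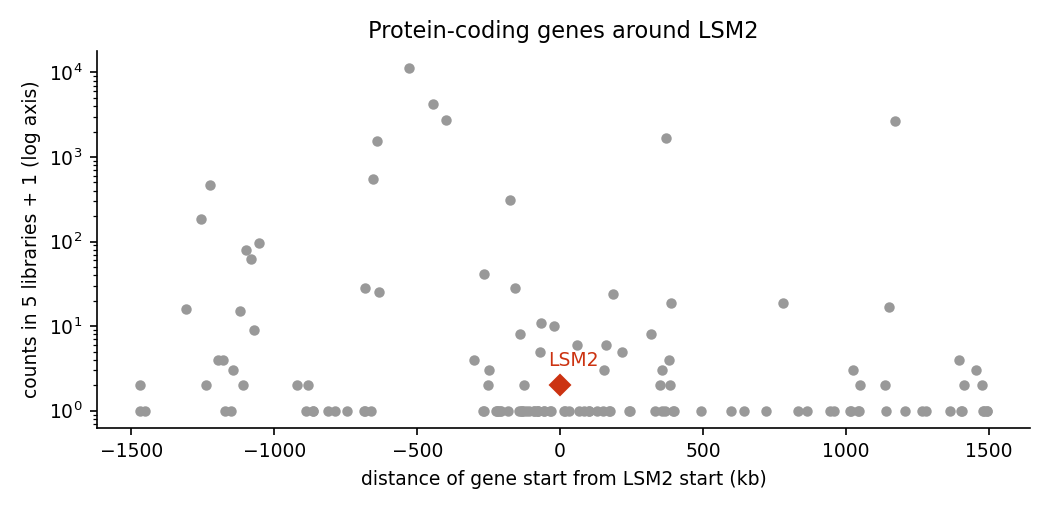
Total counts over the 5 libraries (log axis, after adding 1) of protein-coding genes by distance from LSM2 in kb, with LSM2 labelled. LSM2 has 1 count, and 37 of the 38 other genes within 200 kb have fewer than 50.

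Rows for 7 annotated processed copies of the members (such as LSM3P3 and LSM6P2) held at most 1 count in total, and 6 of them held 0.

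The nearest protein-coding gene on each side of each member was examined next, since 4 members share a divergent start with a neighbor less than 200 bases away. Of the 16 flanking genes 10 were tested, 1 was called lower and 0 higher, where 3.47% and 0.489% of all tested genes were. AVL9, whose start lies 143 bases from that of LSM5 on the other strand, was at 74.1, 77.6 and 65.2 CPM in siCtrl and at 97.9 and 91.5 CPM in siFAM53C. Both knockdown libraries were higher, opposite to LSM5, but the log2 fold change of 0.39 (SE 0.11) did not pass (adjusted p = 0.127). It passed with a term for the library split (adjusted p = 0.00265) and with a block by the numbers in the column names (adjusted p = 0.00616).

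BAG4, a chaperone cofactor whose start is 197 bases from that of LSM1, fell from 28.7 ± 0.358 CPM (SD, n = 3) to 16.0 ± 1.23 CPM (SD, n = 2). On the log2 scale this was −0.84 (SE 0.14, adjusted p = 0.0166), while LSM1 stayed within its spread. Leaving out siCtrl 1, siCtrl 2, siFAM53C 1 or siFAM53C 2 in turn ended this call, with adjusted p from 0.0847 to 0.15. The 3′ UTR of BAG4 holds GACAAGA, and that of LSM1 does not. The tested flanking genes PDE1C (beside LSM5) and ZNF827 (beside LSM6) hold it too, and neither was called. Their log2 fold changes were 0.29 (adjusted p = 0.47) and −0.32 (adjusted p = 0.219). XPC, a DNA damage recognition factor, starts 196 bases from LSM3 and was at 45.1, 38.4 and 38.0 CPM in siCtrl and at 61.1 and 45.3 CPM in siFAM53C (log2 fold change 0.39, SE 0.16, adjusted p = 0.253). SPPL2B, an intramembrane protease, starts 4 bases from LSM7 and was at 30.4, 26.8 and 50.6 CPM in siCtrl and at 48.3 and 67.6 CPM in siFAM53C (log2 fold change 0.69, SE 0.29, adjusted p = 0.30). In siCtrl 3, SPPL2B was the highest control where LSM7 was the lowest. SPPL2B passed without siCtrl 3 (adjusted p = 0.00739), without a filter, with either replicate block and with the split term (adjusted p = 0.000957), and XPC with the split term (adjusted p = 0.0127). For 3 of the 4 pairs the estimates of the member and its neighbor had opposite signs.

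**Figure D4:**
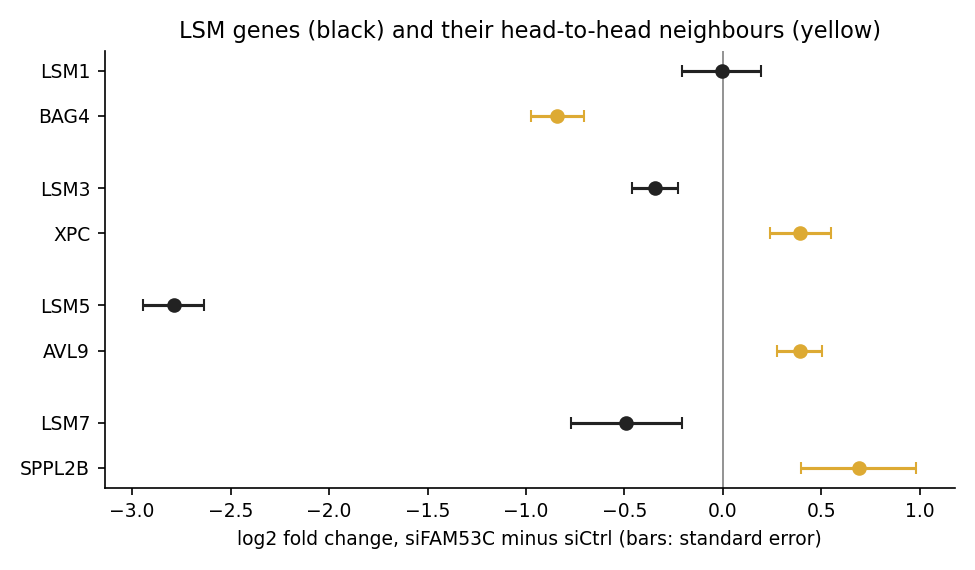
Log2 fold change (siFAM53C minus siCtrl, with standard error bars) of the 4 members with a divergent neighbor and of that neighbor. LSM5 is at −2.79 beside AVL9 at 0.39, and LSM1 is at −0.0067 beside BAG4 at −0.84.

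Genes whose profile over the 5 libraries lay nearest to that of LSM5 were found by the Euclidean distance of log2 CPM after subtracting each gene's siCtrl mean, over 9300 genes with a mean of at least 10 CPM. They were chosen on the same contrast and are described without a test. The nearest was ITGB8, an integrin beta subunit, at a distance of 0.057, where the median over all genes was 3.92. ITGB8 was at 62.7, 74.7 and 68.5 CPM in siCtrl and at 9.64 and 10.8 CPM in siFAM53C. The next were the atypical MAP kinase MAPK6 (distance 0.26), the adhesion receptor ADGRL2 (0.47), the channel protein PANX1 (0.52) and the 5S RNA transcription factor GTF3A (0.60), with log2 fold changes from −3.13 to −2.44. The 3′ UTRs of the first 4 hold GACAAGA, and that of GTF3A does not, where 10.3% of all genes with a 3′ UTR hold it. The genes and the heptamer were both picked from these data, so the matches are a description. One site of each is printed to set beside that of LSM5, with the heptamer in capitals. They lie at chr7:20410473-20410479, chr15:52065259-52065265, chr1:81991585-81991591 and chr11:94181137-94181143, all on the plus strand of GRCh38.
ITGB8: gtggttgaataGACAAGAacagctagatga
MAPK6: aaatgcactaaGACAAGAacattctctcat
ADGRL2: ttactattcctGACAAGActtggaaaagca
PANX1: aaaagcagaaaGACAAGAacaattagtcaa

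The genes that work with the rings were taken as 6 lists of 62 genes, of which 61 were tested. In all, 3 were called lower (CNOT7, CNOT2 and LSM11) and 0 higher, where 3.47% and 0.489% of all tested genes were, and the median log2 fold change was 0.011, against 0.016 over all genes. At an unadjusted p under 0.05, 7 were lower and 6 higher, as were 1607 and 1014 of all 15341 genes tested. DESeq2 called 4 partner genes lower and 3 higher, and 890 and 257 over all genes. The groups did not overlap for 14 lower and 13 higher genes of the 61, where 18.8% and 16.7% of all genes had such a pattern.

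Of the 12 partners of the cytoplasmic ring in decapping and 5′ to 3′ decay, 0 passed, where 3.96% of all tested genes did in either direction. The median log2 fold change of the 12 was 0.15. PATL1, which bridges the ring and the decapping machinery, had a log2 fold change of 0.016 (SE 0.10), and the 5′ exonuclease XRN1 of 0.12 (SE 0.16). The largest estimates by size were those of DCPS and DCP1A. DCPS, which degrades the cap left after 3′ to 5′ decay, was at 17.2, 20.9 and 16.6 CPM in siCtrl and at 13.9 and 11.2 CPM in siFAM53C (log2 fold change −0.54, SE 0.19, adjusted p = 0.195). DCP1A, a cofactor of the decapping enzyme, was at 33.1, 35.6 and 38.5 CPM in siCtrl and at 47.3 and 56.6 CPM in siFAM53C (log2 fold change 0.54, SE 0.13, adjusted p = 0.0674). The decapping enhancer EDC3 and the catalytic subunit DCP2, named after their values were seen, had estimates of 0.54 (adjusted p = 0.0514) and 0.53 (adjusted p = 0.0913). All 3 of DCP1A, EDC3 and DCP2 were higher in both siFAM53C libraries than in every siCtrl library, as were 16.7% of all tested genes. They missed the threshold in the main edgeR fit and passed with DESeq2, without a filter, without siCtrl 3, with either replicate block and with the split term. None of them passed with limma-voom, with DESeq2 size factors, without siCtrl 1 or without siCtrl 2. With library totals DCP1A and EDC3 passed, and with a minimum of 1 CPM only EDC3 did. Of the alternatives run, DCPS passed only with the split term (adjusted p = 0.0325).

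Deadenylases shorten the poly(A) tail before the ring can bind, and their list of 13 genes also holds other subunits of their complexes. Of the 13, 2 were called lower, where 3.47% of all tested genes were. CNOT7, a catalytic subunit of the CCR4-NOT complex, was at 127.9, 133.8 and 126.6 CPM in siCtrl and at 66.9 and 62.0 CPM in siFAM53C, 2.01-fold lower (log2 fold change −1.01, SE 0.10, adjusted p = 0.00222). Its paralog CNOT8 was at 51.2, 49.6 and 55.3 CPM in siCtrl and at 54.7 and 57.5 CPM in siFAM53C (log2 fold change 0.11, adjusted p = 0.693). CNOT2, a scaffold subunit, fell from 60.1 ± 2.58 CPM (SD, n = 3) to 38.2 ± 1.46 CPM (SD, n = 2) (log2 fold change −0.65, SE 0.11, adjusted p = 0.0183). Leaving out siCtrl 1, siCtrl 2, siFAM53C 1 or siFAM53C 2 in turn ended the call of CNOT2, with adjusted p from 0.0787 to 0.175. CNOT7 and CNOT2 overlap genes of the opposite strand over 2057 and 404 exon bases.

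On the side of the nuclear ring, 0 of the 8 U6 RNA maturation factors passed, with a median of 0.11. Of the 14 tested tri-snRNP proteins 0 passed, with a median of −0.079. Over all tested genes, 3.96% passed in either direction. TUT1, which adds uridines to the U6 3′ end, had a log2 fold change of 0.53 (adjusted p = 0.20), and the noncanonical poly(A) polymerase TENT4A of −0.53 (adjusted p = 0.0656). TENT4A passed with DESeq2 (adjusted p = 0.0141), without a filter, without siCtrl 3, with either replicate block and with the split term. TUT1 (adjusted p = 0.0426) and the RNA capping enzyme MEPCE (adjusted p = 0.042) passed with the split term. In the tri-snRNP, the largest estimates were −0.42 for the peptidyl-prolyl isomerase PPIH (adjusted p = 0.212) and −0.41 for PRPF31. PRPF31 had only 13 to 26 counts per library, and all of its exon windows have an exact copy on an alternate sequence.

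Of the 8 Sm ring proteins, 0 passed (median −0.12), where 3.96% of all tested genes did in either direction. These proteins form the related ring on the other spliceosomal RNAs. SNRPD1, at 104.8, 112.4 and 98.7 CPM in siCtrl and 94.5 and 80.7 CPM in siFAM53C, had the largest estimate (log2 fold change −0.27, adjusted p = 0.304), followed by SNRPE (−0.25, adjusted p = 0.455). In all 8 of them siCtrl 3 was the lowest control library, as it was for 40.1% of all tested genes. The median difference of the Sm proteins was −0.21 on the side without siCtrl 3 and 0.13 on the side with it. Of the 6 other tested ring members, siCtrl 3 was the lowest control for 3.

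Among the 6 other proteins with an LSM domain, only LSM11 passed, where 3.96% of all tested genes did in either direction. LSM11 (ENSG00000155858), a subunit of the U7 snRNP that processes the 3′ ends of replication-dependent histone messenger RNAs, was at 19.0, 21.6 and 19.4 CPM in siCtrl and at 5.86 and 7.30 CPM in siFAM53C. Both knockdown libraries lay well below every control library, 3.04-fold lower in all (log2 fold change −1.60, SE 0.18, adjusted p = 0.00363). Its partner in the U7 ring, LSM10, was at 28.7, 26.4 and 16.4 CPM in siCtrl and at 31.2 and 25.6 CPM in siFAM53C (log2 fold change 0.25, adjusted p = 0.675). The 3′ UTR of LSM11 holds the heptamer at base 4700 of 5445, at chr5:157759964-157759970 on the plus strand of GRCh38, and the site is printed because LSM11 is the LSM-domain gene nearest to LSM5 in size of change.
LSM11: gaaagctctctGACAAGAaatagttctgga
Of the 3 partner genes that fell, CNOT7 and LSM11 hold the heptamer and CNOT2 does not. In all, 8 of the 62 partner genes hold it, and the other 6 (TENT4A, DCPS, SNRPD1, DDX6, USB1 and GEMIN6) did not pass in the main fit.

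**Figure D5:**
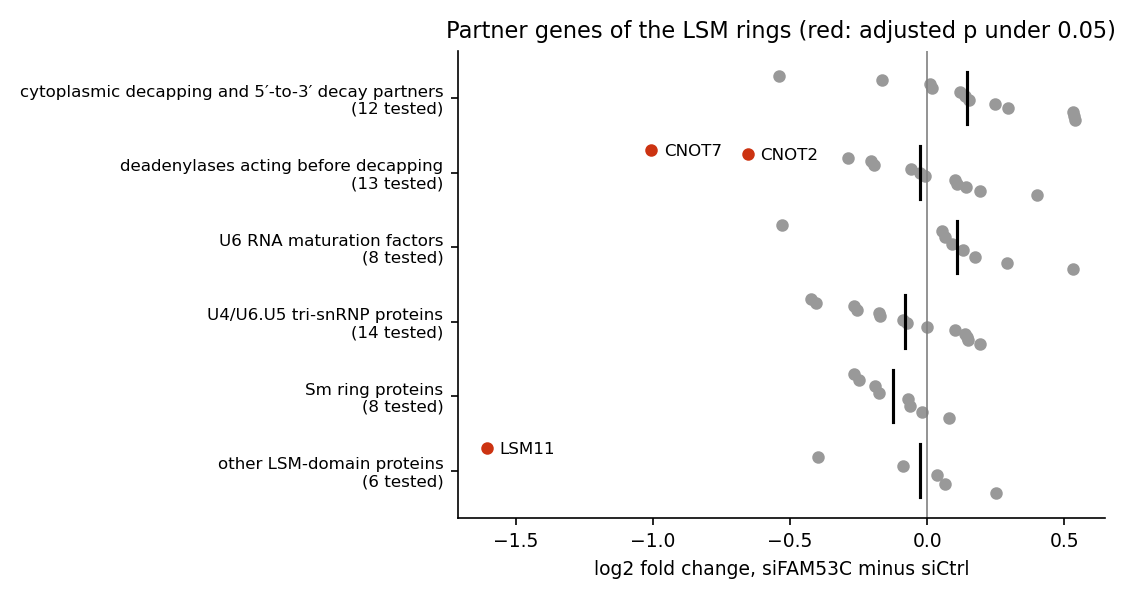
Log2 fold change (siFAM53C minus siCtrl) of each tested partner gene, in a row for each of the 6 lists, with the genes called lower marked and the list median drawn as a line. LSM11 at −1.60, CNOT7 at −1.01 and CNOT2 at −0.65 stand apart from lists whose medians lie between −0.12 and 0.15.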

How the data were processed

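Polyadenylated RNA of RPE-1 cells was sequenced in 3 siCtrl and 2 siFAM53C libraries. Per the methods and the submitters' processing notes, reads were trimmed (cutadapt 2.10), mapped with HISAT2 to hg38 and assigned by featureCounts, and the authors deposited raw counts per gene without normalization. The methods describe duplicates, and the table holds 3 control columns. All 5 columns were matched to samples by name. Symbols and positions came from GENCODE 44 (56105 of 64252 identifiers), which may differ from the annotation of the authors. The 8147 others held 0.382 to 0.583% of counts.

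Genes were filtered by filterByExpr (minimum count 10, total 15), leaving 15341, and tested with edgeR 4.0.16 (TMM, robust quasi-likelihood F test, Benjamini-Hochberg adjustment over all tested genes, threshold 0.05) in R 4.3.3. The pipeline was tested on simulated data. DESeq2 1.42.0, limma-voom (limma 3.58.1), other scalings and filters, a replicate block, a term for the library split and leaving out each library were alternatives. Exact copies of exon windows were sought with minimap2 2.31.

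The members, lists and the heptamer were chosen with earlier results of these data known. Named genes were the members, FAM53C, nearest flanking genes, the 5 profiles nearest to LSM5, pseudogene rows, and per list those past the threshold, or the 2 largest estimates. PATL1, XRN1, EDC3, DCP2, CNOT8, MEPCE, LSM10, CSNK2B and CLIC1 were named outside this rule, after their values were seen. The same holds for PRPF8, PARN, LSM14A, DDX6, USB1 and GEMIN6. Total counts per library limit the precision of low genes.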

Additional observations from a re-analysis of the deposited data

How the results depend on the processing

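The log2 fold change of LSM5 lay between −2.87 and −2.72 under every alternative run, and its ratio to the ring median between −2.84 and −2.54. The difference in the LSM1 to LSM8 ratio ranged from −0.44 to 0.050 when 1 library was left out, with the sign reversed only without siFAM53C 2. Of 1091 pairs of 78 named genes and alternatives, 1035 stayed on the same side of the threshold and 48 newly passed. In 8 pairs the gene no longer passed (CNOT2 and BAG4, each with 1 library left out), and 0 calls changed direction. Estimates that did not pass could change sign. That of LSM1 was −0.006653 in the main fit and 0.1032 without siCtrl 1.

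Ring members other than LSM5 called lower numbered 0 in the main test, 1 with a block by titles, 1 with the split term, 1 at an unadjusted p under 0.05, and 0 to 1 with 1 library left out. Partner genes called higher (0 in the main test) numbered 3 with DESeq2, 2 with library totals, 3 without a filter, 1 with a minimum of 1 CPM, 5 with the split term, 6 unadjusted and 0 to 4 with 1 library left out. Partner genes called lower (3) numbered 6 with the split term, 7 unadjusted and 2 to 4 with 1 library left out. Leaving out the 5 partner genes copied on alternate sequences, an alternative chosen after seeing the data, gave 3 lower and 0 higher.

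Over all genes, 533 were called lower and 75 higher. DESeq2 called 890 and 257, no filter 961 and 375, the split term 1636 and 1037, and the unadjusted threshold 1607 and 1014. Library totals gave 415 lower and 121 higher, and the 1 CPM minimum 113 higher. Leaving out 1 library gave 157 to 886 lower and 6 to 414 higher, the highest of both without siCtrl 3 and the lowest without siFAM53C 1 and siCtrl 2. The cause of these shifts was not tested.

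The titles and the column names number the second siFAM53C library differently, so the replicate block was run by each. By titles it called 856 lower and 355 higher over all genes, and 3 partner genes higher. By column names it called 1350 and 642, and 3 partner genes higher. This block pairs siCtrl 3 with siFAM53C 2, as the split term does, so those fits are not independent of each other. Deviations of same-numbered libraries correlated at 0.169 and −0.285 by titles and at 0.169 and 0.371 by column names. With 2 siFAM53C libraries their deviations mirror each other, so these correlations cannot show whether same-numbered libraries were made together.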

Other observations

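Other genes of the RNA decay and splicing lists had exact copies of most exon windows on alternate sequences of hg38, as LSM2 did. PRPF8, the central scaffold of the spliceosome, had 0, 0 and 1 counts in siCtrl and 1 and 0 in siFAM53C. PARN, a poly(A)-specific ribonuclease, had 154, 83 and 275 counts in siCtrl and 182 and 163 in siFAM53C. LSM14A, a P-body protein with an LSM domain, had 224, 74 and 94 counts in siCtrl and 99 and 230 in siFAM53C. The part of the copies in these values was not tested.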
